A study of Mus musculus with 5 samples.

Results

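The Snai, Twist, Zeb and Prrx genes encode 4 pairs of transcription factors that are studied together as regulators of the mesenchymal state. The 8 genes Snai1, Snai2, Twist1, Twist2, Zeb1, Zeb2, Prrx1 and Prrx2 were taken by name, and they are 8 of the 25414 mouse genes to which the deposited RefSeq transcripts were assigned. Each gene's level is the sum of the FPKM values of its transcripts in a library, where FPKM means the fragments of a transcript scaled to its length and to the number of mapped fragments in the library. The 8 genes are listed with 18 transcripts, of which 15 were above 0 in at least 1 library.

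In an epithelial-mesenchymal transition (EMT), epithelial cells lose their junctions and polarity and take on the shape and movement of mesenchymal cells. The Snai and Zeb proteins are zinc-finger repressors that bind the E-box CAGGTG, for example at the promoter of the E-cadherin gene Cdh1, whereas the Twist proteins are basic helix-loop-helix factors that act as dimers with E proteins. The Prrx proteins are paired-related homeodomain factors of limb, facial and other connective tissue mesenchyme, and the Zeb genes also work in the developing nervous system.

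RNA-seq was compared between 2 cultured mouse cell types, with 2 libraries of neural stem cells (NSCs) and 3 of STO cells, none of them under a named treatment. The NSCs were primary cells of embryonic cortex, grown as monolayers on poly-l-ornithine and laminin with EGF, bFGF, heparin and B27, and the labels give 5 to 8 passages. The STO cells are an established line of mouse embryonic fibroblasts, grown in DMEM with fetal bovine serum, and the labels give over 30 passages. Strain C57BL/6 is the label of all 5 libraries, yet the paper describes STO cells as derived from SIM mouse embryos. A match of strain is thus not certain, and a difference of strain could not be told apart from cell type. Cell type, culture medium, passage number and the choice of this line stand for each other in this design and cannot be told apart, and no label says whether replicates came from separate cultures, so the p-values measure the spread between these libraries.

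The deposited FPKM values sum to between 385485 and 446393 per library, and the relative depth, read from the deposited confidence intervals of single-transcript genes, ran from 0.717 to 1.10 times that of NSC replicate 1. Replicates correlated across genes at 0.994 or above, against 0.578 to 0.585 between the cell types. All 10 neural stem cell markers were lower in STO cells, with summed FPKM of 3866 and 4081 in NSC and 0.399 to 0.517 in STO libraries, and 9 of 10 fibroblast markers were higher, with sums of 16.0 and 16.1 against 2609 to 2791. Muscle, endothelial and microglial markers summed to under 1 FPKM in every library. Of 6 neuron markers 3 were lower in STO cells and 1 was not called, with sums of 133 and 134 FPKM in NSC and 12.3 to 12.8 in STO libraries. Of 8 pericyte and meningeal markers 4 were higher, with sums of 3.28 and 2.90 against 196 to 204 FPKM. The STO sums came mostly from Dcn, also a fibroblast marker and listed at 0 in NSCs. The NSC sums came mostly from Foxc1, at 2.87 and 2.48 FPKM. The other 4 were under 1 FPKM in all libraries and not tested. Among these, Rgs5 had means of 0.241 in NSCs and 0.0392 in STO cells, Kcnj8 had 0.161 and 0, and Abcc9 was listed at 0 in all libraries. Whether cells with these markers had a part in the results on the 8 genes was not tested.

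Of the 8 genes, 6 were higher in STO cells, namely Snai1, Snai2, Twist1, Twist2, Prrx1 and Prrx2, and 1, Zeb1, was lower (limma on log2(FPKM + 1), Benjamini-Hochberg adjusted p under 0.05). The same 7 genes differed by at least 1 on the log2 scale, and their libraries did not overlap between the cell types. Only Zeb2 did not pass and had overlapping libraries. Among all 12292 genes tested, 41.9% were called higher and 43.7% lower, and with a difference of at least 1 these shares were 17.1% and 21.3%. Most genes were thus called in this comparison, so a count of calls alone says little about the 8 genes. How many of all genes tested had libraries without overlap was not counted, so the lack of overlap does not single out the 7 genes. The median log2 difference was 3.80 over the 8 genes and -0.02 over all genes tested. All 8 genes had a mean of at least 1 FPKM in STO cells and 4 had one in NSCs, so Snai1, Snai2, Twist1 and Twist2 entered the test only through their STO level. In bulk RNA, fewer cells with a transcript and less of it in each cell cannot be told apart.

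**Figure D1:**
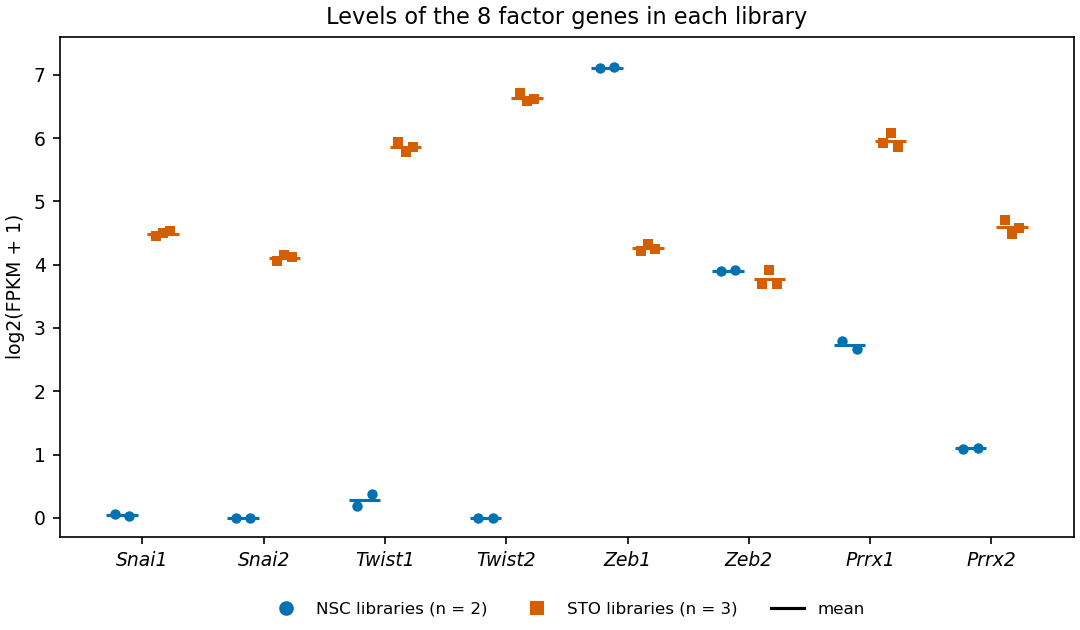
Each point is a library, with log2(FPKM + 1) on the vertical axis and the 8 genes along the horizontal axis. NSC libraries are blue circles (n = 2), STO libraries are orange squares (n = 3), and bars mark the group means. Snai1, Snai2, Twist1 and Twist2 lie at or near 0 in NSCs and above 4 in STO cells, Zeb1 lies higher in NSCs, and the Zeb2 points overlap.

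Snai1, at chr2:167363695-167368311 of mm9, encodes the founding Snail repressor. It measured 0.0393 and 0.0179 FPKM in NSC replicates 1 and 2 and 20.9, 21.6 and 22.0 FPKM in STO replicates 1, 2 and 3. The NSC values rest on very few fragments, 2 and 1 as implied by the deposited confidence intervals, against 751, 884 and 1220 in the STO libraries. The depth-corrected ratio of fragments was 766, with a 95% exact interval of 262 to 3717 that covers counting error only. In the fit the difference was 4.45 on the log2(FPKM + 1) scale (SE 0.053, limma adjusted p = 7.86e-09), a scale on which the pseudocount of 1 compresses a change from so low a level.

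Snai2, at chr16:14705952-14709475, encodes Slug, a Snail relative known from the neural crest. It was listed at 0 in both NSC libraries and measured 15.6, 16.7 and 16.4 FPKM in the STO libraries. Its mean in STO cells was 16.2 ± 0.58 FPKM (SD, n = 3). A single fragment would have been worth 0.0161 and 0.0147 FPKM in the NSC libraries, the estimates carried the status OK, and no fold is given against 0. The fitted log2 difference was 4.11 (SE 0.054, limma adjusted p = 1.07e-08). The Snai1 promoter is shown because this gene's own window holds the E-box of its family. The window is the RefSeq sequence from 250 bases before to 50 bases after the start, matched at a single place of mm9, chr2:167363445-167363744 on the plus strand. Capitals mark CAGGTG on either strand, here CACCTG, whose first base lies at position -126 from the start.
Snai1: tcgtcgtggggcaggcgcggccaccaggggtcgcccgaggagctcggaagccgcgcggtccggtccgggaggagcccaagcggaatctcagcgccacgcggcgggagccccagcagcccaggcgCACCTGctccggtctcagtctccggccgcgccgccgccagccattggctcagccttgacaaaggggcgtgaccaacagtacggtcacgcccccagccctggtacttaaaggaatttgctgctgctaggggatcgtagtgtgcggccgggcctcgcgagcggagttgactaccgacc

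Twist1, at chr12:34642536-34644696, encodes a basic helix-loop-helix factor of cranial and limb mesenchyme. Its values were 0.137 and 0.303 FPKM in the NSC libraries and 60.3, 54.1 and 57.1 FPKM in the STO libraries. The intervals imply 7 and 17 fragments in NSCs, so a trace was present in both libraries and neither reached 1 FPKM. The ratio of fragments was 255 (95% exact interval 171 to 399), and the fitted log2 difference was 5.58 (SE 0.081, limma adjusted p = 1.44e-08).

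Twist2, at chr1:93698038-93744611 and known also as Dermo1 from the dermis, was listed at 0 in both NSC libraries. It reached 104, 95.3 and 96.8 FPKM in the STO libraries, more than any other of the 8 genes there. In rank among all genes it stood at places 608 to 684 of the STO libraries. Its fitted log2 difference of 6.64 (SE 0.059, limma adjusted p = 5.07e-09) was exceeded by 27 of the 12292 genes, and that of Twist1 by 70. The fitted size of all 4 Snai and Twist genes depends on the pseudocount, and with 0.1 in place of 1 it was 7.40 for Snai1, 7.35 for Snai2, 7.53 for Twist1 and 9.95 for Twist2.

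The Twist promoters are shown together because the paralogs share the STO-high pattern and were compared for motifs. Twist1 is from chr12:34642286-34642585 and Twist2 from chr1:93697788-93698087, both on the plus strand of mm9. Capitals mark TATAAA on either strand, which stands at position -126 of Twist1. This motif occurs in 13.6% of all 32851 RefSeq windows of the same length. Neither window holds CAGGTG or TAATTA. The ratio of observed to expected CpG dinucleotides was 0.827 for Twist1 and 0.803 for Twist2, against a median of 0.384 over all windows.
Twist1: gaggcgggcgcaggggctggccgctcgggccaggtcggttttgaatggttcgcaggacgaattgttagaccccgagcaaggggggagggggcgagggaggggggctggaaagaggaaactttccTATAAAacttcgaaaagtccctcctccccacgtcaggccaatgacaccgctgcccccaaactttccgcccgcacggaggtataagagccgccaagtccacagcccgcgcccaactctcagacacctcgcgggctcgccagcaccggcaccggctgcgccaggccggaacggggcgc
Twist2: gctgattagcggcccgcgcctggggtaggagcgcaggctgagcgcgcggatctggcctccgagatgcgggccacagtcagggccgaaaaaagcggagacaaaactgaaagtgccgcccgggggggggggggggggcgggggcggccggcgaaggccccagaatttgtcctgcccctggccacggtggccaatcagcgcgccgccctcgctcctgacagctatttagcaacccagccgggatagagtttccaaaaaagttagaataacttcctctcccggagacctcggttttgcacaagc

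Prrx1, at chr1:165175250-165243781, encodes a homeodomain factor of limb bud and facial mesenchyme. It was above 1 FPKM in every library, with 5.96 and 5.34 FPKM in NSCs and 59.4, 66.4 and 57.3 FPKM in STO cells. The group means of 5.65 ± 0.44 (SD, n = 2) and 61.0 ± 4.8 FPKM (SD, n = 3) differ by 10.8 times. The fitted log2 difference was 3.22 (SE 0.082, limma adjusted p = 1.47e-07). The 3 Prrx1 transcripts were listed above 0 in all libraries and were each higher in STO cells when fitted singly. NM_175686, the one with the highest mean, made up 37.7% and 38.6% of the gene's FPKM in NSCs and 40.6% to 41.2% in STO cells. NM_011127 took 34.6% and 36.2% against 30.0% to 31.3%, and NM_001025570 took 27.7% and 25.2% against 27.7% to 29.0%. As assigned, the step between the cell types thus ran through all 3 transcripts. NM_011127 and NM_175686 have the same deposited start and end, and NM_001025570 shares 1 of these ends. The division of fragments among them is therefore uncertain, and whether each transcript rose by itself was not tested.

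Prrx2, at chr2:30700887-30736767, encodes the related factor that acts with Prrx1 in the same mesenchyme. It measured 1.13 and 1.16 FPKM in NSCs and 25.2, 21.3 and 23.0 FPKM in STO cells. The means of 1.14 and 23.2 FPKM differ by 20.3 times, with a fitted log2 difference of 3.49 (SE 0.077, limma adjusted p = 7.80e-08). NSCs therefore held low but measurable levels of both Prrx genes. In the same NSC libraries the 10 fibroblast markers summed to 16.1 and 16.0 FPKM, led by S100a4 at 6.95 and 6.63 FPKM and Col6a1 at 4.77 and 4.75 FPKM, while 3 of them, Col3a1, Dcn and Lum, were listed at 0. The part of cells with these markers in the Prrx levels was not tested.

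The Prrx promoters are shown because these paralogs move together and differ in base make-up. Prrx1 is from chr1:165243732-165244031 on the minus strand and Prrx2 from chr2:30700637-30700936 on the plus strand of mm9. Capitals mark TAATTA, a core that homeodomain proteins can bind, which reads the same on both strands. It stands at position -173 of Prrx1, is not in the Prrx2 window, and occurs in 5.29% of all windows. The observed to expected CpG ratio was 0.36 for this Prrx1 window and 0.756 for Prrx2.
Prrx1: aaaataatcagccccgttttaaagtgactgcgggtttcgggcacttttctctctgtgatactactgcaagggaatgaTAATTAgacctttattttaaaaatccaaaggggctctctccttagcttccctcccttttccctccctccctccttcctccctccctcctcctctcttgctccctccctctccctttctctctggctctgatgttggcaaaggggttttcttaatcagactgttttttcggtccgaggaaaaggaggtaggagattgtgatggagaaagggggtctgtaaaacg
Prrx2: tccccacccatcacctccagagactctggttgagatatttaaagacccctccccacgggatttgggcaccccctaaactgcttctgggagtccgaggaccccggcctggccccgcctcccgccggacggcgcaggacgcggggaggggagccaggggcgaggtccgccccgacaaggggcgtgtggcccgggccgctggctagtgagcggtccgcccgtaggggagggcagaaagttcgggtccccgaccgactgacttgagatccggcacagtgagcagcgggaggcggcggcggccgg

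Zeb1, at chr18:5591858-5775466, was the gene with the opposite direction. The protein is a zinc-finger and homeodomain repressor of epithelial genes that is also present in neural progenitors. It measured 136.5 and 138.1 FPKM in NSCs and 17.5, 19.0 and 18.0 FPKM in STO cells. Its means of 137 ± 1.12 (SD, n = 2) and 18.2 ± 0.74 FPKM (SD, n = 3) put it 7.56 times higher in NSCs. It ranked at places 494 and 496 among all genes in NSCs and at 4286 to 4689 in STO cells. The fitted log2 difference was -2.85 (SE 0.054, limma adjusted p = 4.08e-08), and 703 of 12292 genes had a lower one. Although lower, Zeb1 at 18.2 FPKM in STO cells lay above Snai2 there. All of its signal was assigned to NM_011546, with its other 2 transcripts listed at 0 in all 5 libraries.

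Zeb2, at chr2:44839032-44972962, encodes the paralog known from the neural crest and cortex. It measured 13.98 and 14.01 FPKM in NSCs and 11.9, 14.1 and 11.9 FPKM in STO cells. STO replicate 2 lay above both NSC libraries and the other STO libraries lay below them. The difference was -0.14 on the log2 scale (95% interval -0.34 to 0.07, limma adjusted p = 0.162), so a difference of the size seen for the other 7 genes lay outside the interval. Without STO replicate 2 the difference was -0.22 and passed the threshold (limma adjusted p = 0.0168).

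The Zeb2 sum hid a different assignment to transcripts, and those above 0 share their 3′ end and differ in their starts. NM_015753 was listed at 4.28 and 4.24 FPKM in NSCs and at 0 in all 3 STO libraries (limma on 16257 single transcripts, log2 difference -2.40, adjusted p = 6.51e-06). NM_001355288, which has the most distal start, was listed at 1.70 and 2.23 FPKM in NSCs and again at 0 in STO cells (log2 difference -1.56, limma adjusted p = 0.000137). In the opposite direction, NM_001289521 was listed at 3.27 and 3.94 FPKM in NSCs and at 8.71, 8.70 and 5.24 FPKM in STO cells (log2 difference 0.87, limma adjusted p = 0.0240). NM_001355289 did not pass, with 3.18 and 3.61 FPKM against 3.19, 5.43 and 4.52 FPKM (limma adjusted p = 0.265). NM_001355290 was above 0 only in NSC replicate 1, at 1.54 FPKM, and NM_001355291 only in STO replicate 3, at 2.15 FPKM. The starts of NM_001355289 and NM_015753 differ by 26 bases, so the division of fragments among such similar transcripts is uncertain, and its effect on the summed FPKM, through the transcripts' lengths, was not tested.

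**Figure D2:**
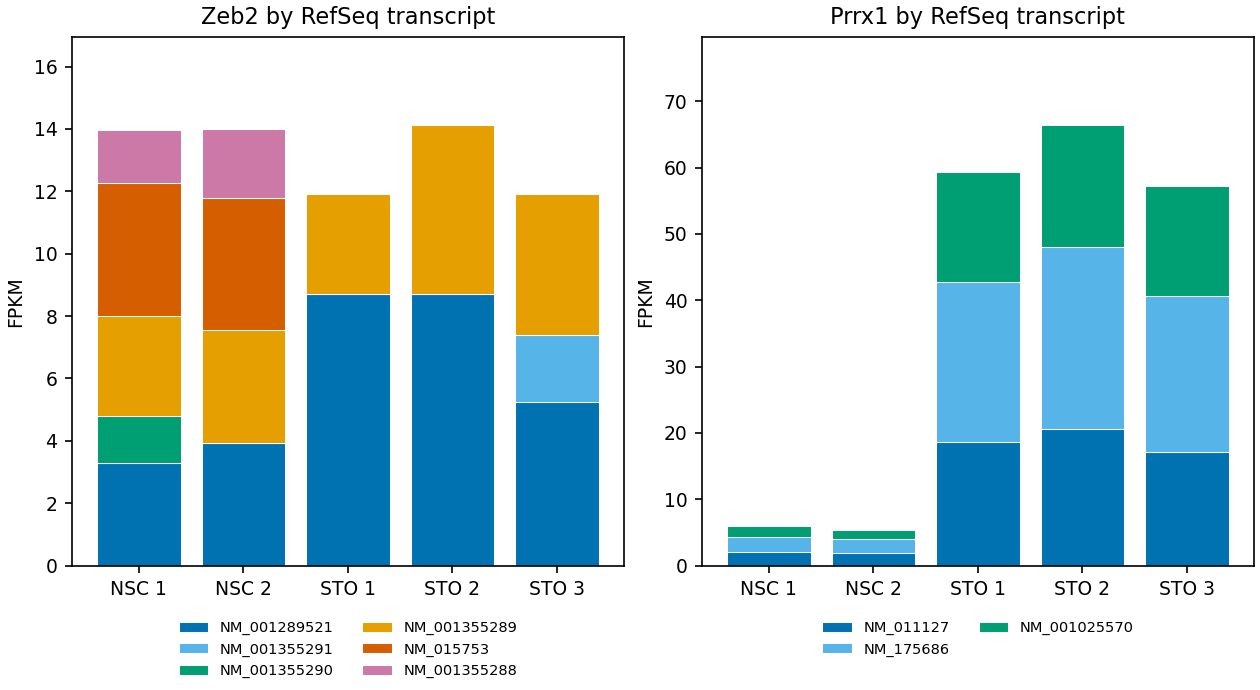
Stacked bars give the FPKM of each RefSeq transcript, on a vertical axis from 0, in each of the 5 libraries, for Zeb2 (left) and Prrx1 (right). The Zeb2 bars reach similar heights in all libraries, but NM_015753 and NM_001355288 have a band in the NSC libraries alone, while the 3 Prrx1 bands grow together in STO cells.

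The order of the 8 genes differed between the cell types. In NSCs it ran Zeb1, Zeb2, Prrx1, Prrx2, Twist1 and Snai1, with no overlap between neighbours, followed by Twist2 and Snai2 at 0. In STO cells it ran Twist2, Prrx1, Twist1, Prrx2, Snai1, Zeb1, Snai2 and Zeb2. There the ranges of Prrx1 and Twist1 overlapped, as did those of Prrx2 and Snai1, so these neighbours cannot be ordered. FPKM is scaled to the length of the transcript, so these are orders of FPKM. Whether other properties of the genes affect their FPKM was not tested.

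The summed FPKM of the 8 genes was 158 ± 0.82 in NSCs (SD, n = 2) and 309 ± 6.35 in STO cells (SD, n = 3). Without the Zeb genes the sums were 7.04 ± 0.32 and 278 ± 6.91 FPKM. Zeb1 alone made up 86.5% and 86.9% of the NSC sums and between 5.56% and 6.15% of the STO sums. No gene took a comparable part in STO cells, where Twist2 held 30.9% to 33.1%, Prrx1 18.8% to 21.5% and Twist1 17.5% to 19.2%. Factor mRNA in NSCs was thus mostly that of 1 gene, and in STO cells it was spread over all 4 families.

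**Figure D3:**
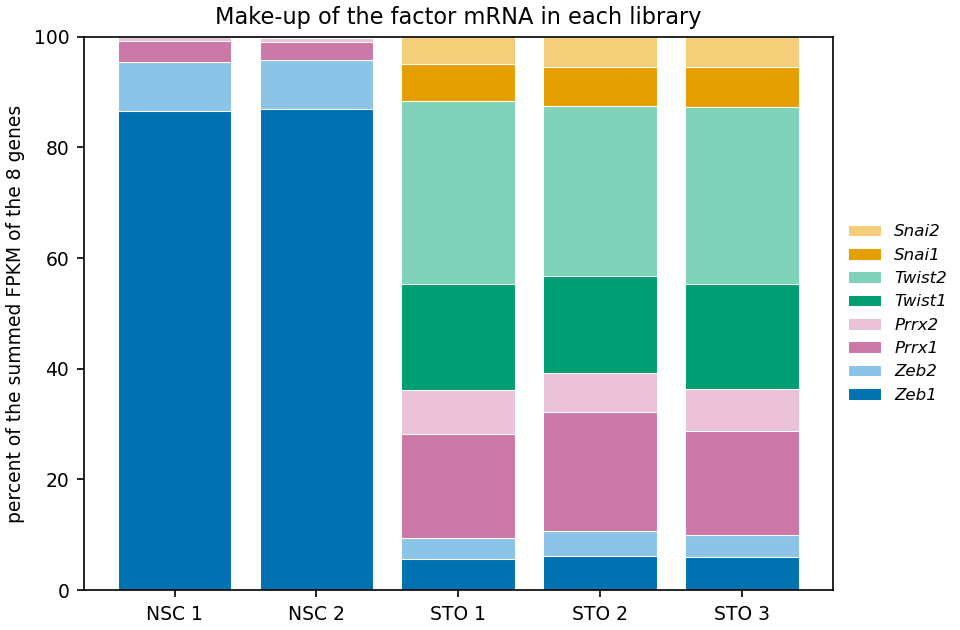
Each bar is a library and is divided by the percent of the summed FPKM of the 8 genes that each gene contributed, from 0 to 100. Zeb1 fills 86.5% and 86.9% of the NSC bars, while Twist2, Prrx1 and Twist1 are the widest bands of the STO bars.

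Within each family, the balance of the paralogs was compared as a share of the family's summed FPKM. Zeb1 made up 90.7% and 90.8% of the Zeb sum in NSCs and 59.5%, 57.3% and 60.1% in STO cells. Prrx1 made up 84.1% and 82.2% of the Prrx sum in NSCs and 70.2%, 75.7% and 71.4% in STO cells. In both families the shares of the cell types did not overlap, and the paralog that led in NSCs also led in STO cells. The other families gave no usable share in NSCs, where the whole Twist signal was the 7 and 17 fragments of Twist1 and the whole Snai signal the 2 and 1 fragments of Snai1. In STO cells Snai2 made up 42.8%, 43.6% and 42.6% of the Snai sum, and Twist1 made up 36.6%, 36.2% and 37.1% of the Twist sum. An exact permutation test over the 5 libraries gave a two-sided p of 0.2 for each of the 4 shares, the Snai and Twist shares included. This test doubles the smaller tail, so with 10 assignments 0.2 is the smallest value it can give. The design cannot reach 0.05, and no conclusion is drawn from these p-values.

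The place of the 8 differences among all genes was uneven. Twist2 stood at percentile 99.8, Twist1 at 99.4, Snai1 at 98.8, Snai2 at 98.5, Prrx2 at 97.5 and Prrx1 at 97.0 of the log2 differences. Zeb1 stood at percentile 5.73 and Zeb2 at 45.7, close to the middle. For Snai1, Snai2, Twist1 and Twist2, all under 1 FPKM in NSCs, the difference was set mostly by their STO level and the pseudocount. Their percentiles and the order among them thus mainly restate their STO levels.

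**Figure D4:**
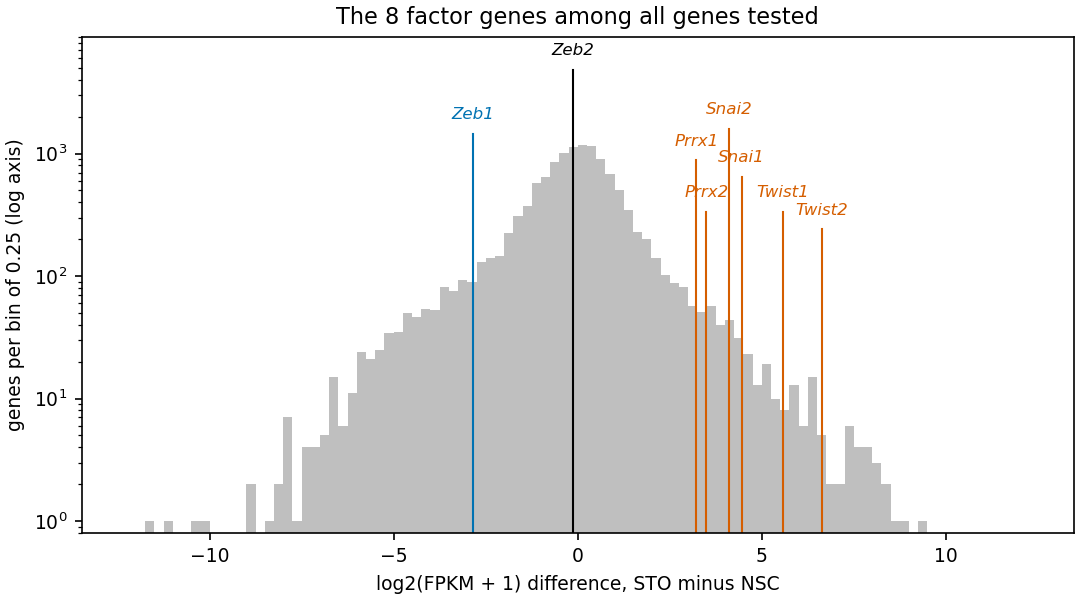
Grey bars count the 12292 genes tested by their log2(FPKM + 1) difference, STO minus NSC, in bins of 0.25, on a log vertical axis. Lines mark the 8 genes, with 6 on the right flank between 3.22 and 6.64, Zeb2 near 0 and Zeb1 at -2.85 on the left.

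Other members of the same protein families were mostly low, in a setting where 12292 of all 25414 genes reached a mean of 1 FPKM in either cell type. Of 15 relatives, 13 were under 1 FPKM in all libraries, among them Snai3, the remaining Snail gene, which was listed at 0 in all 5. Shox2, a paired-type homeobox gene of the limb, measured 0.0914 and 0.0224 FPKM in NSCs and 9.77, 11.6 and 11.8 FPKM in STO cells (log2 difference 3.51, limma adjusted p = 1.46e-07). Scrt1, a neuronal Snail-family repressor, measured 1.72 and 1.60 FPKM in NSCs and at most 0.011 in STO cells (log2 difference -1.41, limma adjusted p = 3.24e-07).

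Partners and corepressors were present in both cell types, and all 18 on the list were tested. Of these, 8 were higher and 8 lower in STO cells, shares of the same order as the 41.9% and 43.7% of all genes, with a median log2 difference of 0.13. Ajuba and Wtip, LIM proteins that bind Snail, were the genes with the largest rise, at log2 differences of 3.77 (limma adjusted p = 3.25e-08) and 1.53 (limma adjusted p = 3.63e-06). Ajuba went from a mean of 1.19 ± 0.16 FPKM in NSCs (SD, n = 2) to 28.9 ± 1.15 in STO cells (SD, n = 3). Tle4, a Groucho corepressor, and Tcf4, an E protein, were lower, at log2 differences of -2.52 and -1.81 (limma adjusted p = 3.36e-07 and 3.75e-06). The other two E proteins, with which Twist factors pair, were looked at after their values were seen. Tcf12 was lower in STO cells, at means of 76.8 against 40.4 FPKM, and Tcf3 was higher, at 40.6 against 57.7 FPKM (limma adjusted p = 5.44e-06 and 0.00101).

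Regulators of Snail and Twist protein stability, all 17 tested, were also divided, with 9 higher and 7 lower in STO cells and a median log2 difference of 0.30, shares near the 41.9% and 43.7% of all genes. Fbxl5, an F-box protein, and Lats2, a kinase of the Hippo pathway, were higher by 2.02 and 1.76 (limma adjusted p = 1.64e-07 and 1.69e-06). Btrc, the F-box protein that recognises phosphorylated Snail, and Gsk3b, the kinase that marks it, were lower, at -0.85 and -0.79 (limma adjusted p = 1.05e-05 and 0.00113). None of the 17 was lower by 1 or more on the log2 scale.

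Genes of the mesenchymal state followed the direction of the 6 higher factors more often than not. Of 22 genes, 21 were tested and 17 of them were higher in STO cells, each by at least 1, against 17.1% of all genes with such a difference, and the list's median was 4.07. S100a4, Thy1 and Pdgfrb are also among the fibroblast markers. Lox, which crosslinks collagen, and S100a4, a calcium-binding protein of fibroblasts, were higher by 7.71 and 7.42 (limma adjusted p = 5.26e-09 and 7.89e-09). Lower in STO cells were 4 genes, among them Cdh2, the N-cadherin gene, with 44.7 and 44.0 FPKM in NSCs against 14.7, 16.4 and 14.5 in STO cells, and Tnc, encoding tenascin C, which fell by 0.88 (limma adjusted p = 2.17e-06 and 2.44e-05). The other two were Vim and Itgb1, named after their values were seen. Vim, encoding vimentin, was abundant in both cell types, at means of 2125 and 1454 FPKM (limma adjusted p = 0.000706). Vim, Cdh2 and Tnc, commonly read as mesenchymal, are also known in neural progenitors.

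Further mesenchymal transcription factors, leaving out Twist1 and Prrx1, comprised 14 tested genes, of which 13 were higher in STO cells and 1 was lower, against 41.9% and 43.7% of all genes, with a median log2 difference of 2.76. A further 6 genes of the list were under 1 FPKM in all libraries and were not tested. Osr1, an odd-skipped factor of connective tissue, had the largest rise of these and was listed at 0 in NSCs and at a mean of 80.5 ± 1.32 FPKM in STO cells (SD, n = 3; limma adjusted p = 4.56e-09). Sox9, which also marks neural progenitors, was the lower gene, with means of 105 against 48.4 FPKM (log2 difference -1.10, limma adjusted p = 9.85e-05).

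**Figure D5:**
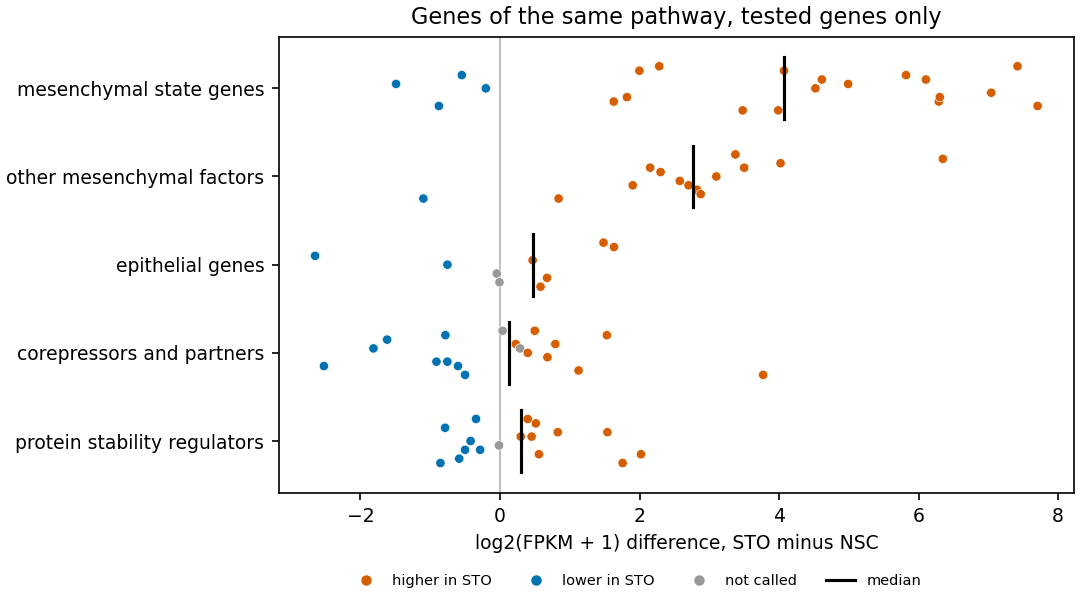
Each point is a tested gene of a list, leaving out the 8 factor genes, placed by its log2(FPKM + 1) difference, STO minus NSC. Orange points were called higher in STO cells, blue points lower and grey points neither, and the black bars mark medians of 4.07 for mesenchymal state genes, 2.76 for other mesenchymal factors, 0.47 for epithelial genes, 0.13 for corepressors and partners, and 0.30 for protein stability regulators.

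Epithelial genes that these factors are known to repress were near the floor in both cell types. Of 26 genes of junctions, polarity and keratins, 17 were under 1 FPKM in all 5 libraries, among them Cdh1, listed at 0 in NSCs and at a mean of 0.203 FPKM in STO cells, and Epcam, at a mean of 0.162 FPKM in NSCs and at 0 in STO cells. These were named after their values were seen. Low levels were common, since 12292 of all 25414 genes reached a mean of 1 FPKM in either cell type. Of the 9 tested, 5 were higher in STO cells, 2 lower and 2 not called, with a median log2 difference of 0.47, and the share called higher was near the 41.9% of all genes (43.7% lower). Pkp3, a plakophilin, and Pard6b, a polarity protein, had the largest rise, to means of 2.10 and 2.73 FPKM in STO cells (limma adjusted p = 1.86e-07 and 1.42e-06). Lama5, a laminin chain, and Tjp1, encoding the junction protein ZO-1, were lower, at log2 differences of -2.65 and -0.75 (limma adjusted p = 2.66e-08 and 2.15e-05). Lama5 had means of 5.34 FPKM in NSCs and 0.00912 in STO cells, and Tjp1 had 36.8 and 21.4.

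Regulators of epithelial fate were likewise low, with 15 of 17 under 1 FPKM in all libraries. Among all 25414 genes, 12292 reached a mean of 1 FPKM in either cell type. The exceptions, Tfap2a and Klf4, both rose in STO cells. Tfap2a, an AP-2 factor of neural crest and epidermis, had means of 0.0589 and 49.4 FPKM (log2 difference 5.57, limma adjusted p = 1.37e-08). Klf4, a Krüppel-like factor, had means of 1.46 and 50.6 FPKM (log2 difference 4.39, limma adjusted p = 7.83e-09).

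The E-box bound by Snai and Zeb proteins, CAGGTG on either strand (CACCTG on the other), was searched in the RefSeq promoter windows. It stood in 20.2% of all 32851 windows, and 22.6% of the 27025 genes had at least 1 window with it. Of the 26 epithelial genes, 19 had a window and 16 of these held the box, or 19 of their 25 windows (76.0%). Cdh1 was among the genes without a window. Among the 14 of these genes under 1 FPKM in all libraries, 13 held it, the exception being Cldn1, and among the other 5, 3 did, the exceptions being Tjp1 and Jup. Epithelial regulators had the box in 5 of 15 windows (33.3%), mesenchymal state genes in 1 of 14 (7.14%), and the 6 factor genes with a window in 1 of 9 (11.1%), that of Snai1 shown with its gene. The shorter core CANNTG, of which CAGGTG is a case, stood in 72.3% of all windows. A match is only a run of letters, no binding was measured, and the epithelial list was assembled from genes known as targets, so its share is a description of a chosen list.

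Epcam and Crb3 are shown as epithelial genes near 0 FPKM with several boxes, and Tjp1 as an expressed gene whose window has none. These are chosen examples, since 3 of the 5 genes with a window that reached 1 FPKM in a library held the box. Epcam, the epithelial adhesion molecule gene, is from chr17:88035069-88035368 and Crb3, a polarity gene, from chr17:57201374-57201673, both on the plus strand of mm9, and Tjp1 is from chr7:72516081-72516380 on the minus strand. Capitals mark CAGGTG or CACCTG, with 2 in Epcam and 4 in Crb3.
Epcam: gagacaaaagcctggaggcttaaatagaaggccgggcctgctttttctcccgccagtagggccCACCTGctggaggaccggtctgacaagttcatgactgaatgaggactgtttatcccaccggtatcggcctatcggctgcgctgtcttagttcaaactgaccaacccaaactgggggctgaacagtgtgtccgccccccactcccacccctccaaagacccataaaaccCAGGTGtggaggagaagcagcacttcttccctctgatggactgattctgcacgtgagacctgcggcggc
Crb3: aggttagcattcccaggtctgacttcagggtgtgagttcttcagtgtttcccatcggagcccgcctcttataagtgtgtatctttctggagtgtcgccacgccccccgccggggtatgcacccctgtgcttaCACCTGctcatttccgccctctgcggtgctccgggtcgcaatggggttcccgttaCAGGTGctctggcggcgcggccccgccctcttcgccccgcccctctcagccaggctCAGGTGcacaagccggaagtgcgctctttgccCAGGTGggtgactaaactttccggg
Tjp1: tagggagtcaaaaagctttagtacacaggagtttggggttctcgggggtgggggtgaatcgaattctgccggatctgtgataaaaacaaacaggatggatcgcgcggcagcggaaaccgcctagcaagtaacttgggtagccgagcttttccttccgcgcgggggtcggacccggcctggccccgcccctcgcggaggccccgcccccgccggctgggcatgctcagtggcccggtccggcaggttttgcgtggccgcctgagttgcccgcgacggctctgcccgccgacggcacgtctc

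The genes most like each factor in level across the 5 libraries were found by the Euclidean distance of log2(FPKM + 1). For Snai1 these were Adh7 and Slc14a1, at distances of 0.15 and 0.18, and for Snai2 Dedd and Mme, at 0.03 and 0.04. For Twist1 they were Fosb and Capg, at 0.22 and 0.32, and for Twist2 Grem1 and C1s1, at 0.18 and 0.26. The neighbours of the Snai and Twist genes had at most 0.324 FPKM in NSCs, and Dedd, like Snai2, was listed at 0 there. For Prrx1 they were Rbpj and Pdpn, at 0.11 and 0.29, and for Prrx2 Lrig3 and Plau, at 0.22 and 0.23. For Zeb1 they were Ddah1 and Rasl11a, at 0.15 and 0.45, and for Zeb2 Irf2 and Acbd5, at 0.07 and 0.14. A small distance says only that the levels were alike in these 5 libraries.

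The genes next to each factor on the chromosome were read from the deposited loci. Ptges, a prostaglandin E synthase gene 8.22 kb from Prrx2, was the neighbour with the largest rise, with 0.593 and 0.669 FPKM in NSCs and 9.08, 8.22 and 8.61 FPKM in STO cells (log2 difference 2.56, limma adjusted p = 1.07e-07). On the other side of Prrx2, Asb6 did not pass (log2 difference -0.17, limma adjusted p = 0.221). Hdac9, 87.8 kb from Twist1, went the other way from its neighbour, with 6.85 and 6.91 FPKM in NSCs and 0.153, 0.216 and 0.171 FPKM in STO cells (log2 difference -2.74, limma adjusted p = 2.80e-08). Ferd3l, on the other side of Twist1, was listed at 0 in all libraries. Around Twist2, Hdac4 did not pass (log2 difference -0.21, limma adjusted p = 0.0773) and Asb1 was lower in STO cells by a difference of -0.54 (limma adjusted p = 0.000115). Thus the large differences of Twist1 and Twist2 were not shared by their neighbours.

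Around Snai1, Rnf114 and Ube2v1 were lower in STO cells, at log2 differences of -0.44 and -1.07 (limma adjusted p = 0.000541 and 5.60e-05). The neighbours of Snai2, A630010A05Rik and Efcab1, were at or near 0 in all libraries. Zfp438 and Arhgap12 beside Zeb1 were lower in STO cells, like Zeb1 but by less, at -0.52 and -0.59 (limma adjusted p = 0.000104 and 6.02e-05). Gtdc1 beside Zeb2 was lower at -0.63 and 1700019E08Rik was listed at 0 (limma adjusted p = 0.000231 for Gtdc1). Gorab beside Prrx1 was higher at 0.73 (limma adjusted p = 0.000333), and Mroh9 on its other side was near 0. Of the loci that overlap a factor gene, Gm10125 within Zeb1 had at most 0.135 FPKM, and Zeb2os and Mir5129 within Zeb2 were listed at 0, so these names took little of the signal.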

How the data were processed

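By the methods and the labels, stranded mRNA libraries (KAPA kit) were read as paired ends and aligned to mm9, and transcripts were quantified on RefSeq genes. HISAT2 (listed as 4.8.2) and Cufflinks 2.2.1 are named in the submitters' processing notes. The authors deposited FPKM values, normalized for depth and length, with confidence bounds for 40201 transcripts; 39951 (99.4%) were matched to symbols of a GRCm38.p6 RefSeq table used for names only, and coordinates are those of mm9. FPKM was summed per gene. No counts were used, and implied fragments, given for single-transcript genes only, are the square of 2 FPKM over the distance to the upper bound.

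Genes with a mean of at least 1 FPKM in either cell type were fitted as log2(FPKM + 1) with limma 3.58.1 (R 4.3.3, trend), with Benjamini-Hochberg adjustment over 12292 genes and a threshold of 0.05, and the fit was tested on simulated data. Shares were compared with scipy 1.17.1. Alternatives were a pseudocount of 0.1, no filter, quantile normalization, no trend, a log2 difference of at least 1, a replicate block, single transcripts and leaving out each library.

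The 8 genes, the lists and the tests were chosen with earlier results of these data known. All 8 genes were named, with the 2 genes most alike in level, the neighbours on the chromosome, and, per list, up to 2 called genes at each extreme of the log2 difference. Cdh1, Epcam, Crb3, Cldn1, Jup, Vim, Itgb1, Snai3, Tcf3, Tcf12, Foxc1, Rgs5 and Kcnj8 were named outside this rule, after their values were seen. Promoter windows are RefSeq sequences matched letter by letter to mm9.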

Additional observations from a re-analysis of the deposited data

How the results depend on the processing

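Over the alternatives, 86 of 88 values for single factor genes and 67 of 72 values for counts and shares kept their direction and their side of the threshold or stayed within 1.5 times or the replicate spread. The log2 differences of Snai1, Snai2, Twist1, Twist2, Zeb1, Prrx1 and Prrx2 passed under all 11 alternatives each. The exceptions for single genes were both Zeb2, which passed without STO replicate 2 (-0.22, limma adjusted p = 0.0168) and turned to 0.87 when its transcript with the highest mean, NM_001289521, was taken alone (limma adjusted p = 0.0240). Over its alternatives the limma adjusted p of Zeb2 ran from 0.0168 to 0.383. Leaving out a library in turn, the number of factor genes lower in STO cells ranged from 1 to 2. With transcripts taken singly, 3 transcripts of the 8 genes were lower, since each Zeb2 transcript was counted for itself. When calls also needed a log2 difference of at least 1, 2103 genes were called higher and 2617 lower. With the highest transcript of each gene only, the difference in the Zeb1 share was -26.5 percentage points in place of -31.8. The correlations of deviations from the group means were 0.01 and 0.06 for the same replicate number, against -0.06 to 0.05 for different numbers. With 2 NSC libraries their deviations mirror each other, so these values cannot show whether replicate numbers pair the samples. With the replicate block, 4994 genes were higher and 5252 lower, against 5153 and 5375, and the calls of all 8 factor genes stayed the same. Without an NSC replicate, the lone NSC library is assumed to vary like the STO libraries. Depth limits the NSC levels of Snai1 and Twist1, which rest on 3 and 24 fragments over both libraries.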
